A study of Mus musculus with 6 samples.

Results

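The insulin-like growth factor (IGF) binding proteins and IGF receptors are a set of 9 genes, *Igfbp1* to *Igfbp7*, *Igf1r* and *Igf2r*, and they were found by their gene names among the 54532 genes of the deposited liver count table. All 9 were listed, and all 9 were among the 15449 genes that passed the filter on low counts and were tested. RNA-Seq was performed on the livers of 3 control and 3 g*Spns1*-cKO mice, 1 library per mouse. SPNS1 is a lysosomal membrane protein that carries lysolipids out of the lysosome. The g*Spns1*-cKO mice carried *Spns1* alleles with loxP sites around exon 3 on both chromosomes (*Spns1* fl/fl) and the Rosa26Cre-ERT2 allele, whose Cre recombinase is made in the whole body and becomes active after tamoxifen, which these mice received as pups, so any cell type of any organ can carry the deletion. The labels call the control mice WT, whereas the methods of the study use *Spns1* fl/fl littermates without Cre as controls. Both groups were on a C57BL/6 background, and whether control mice received tamoxifen, the age at harvest and the sex of these 6 mice are not given in the sources used here. The methods of the study also give no feeding state and no time of day at harvest.

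IGF1 and IGF2 are growth factors that act through the IGF1 receptor, a tyrosine kinase of the insulin receptor family. Most circulating IGF1 is made by the liver under the control of growth hormone, and in blood nearly all of it is held by binding proteins, which lengthen its life and limit its access to the receptor. The IGF2 receptor does not signal as a kinase. It removes IGF2 from the cell surface, and under its other name, the cation-independent mannose 6-phosphate receptor, it carries newly made enzymes to the lysosome.

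The libraries held between 30350002 and 35295611 counts. Levels are given as CPM, counts over a library size scaled by edgeR's TMM method and brought to a common total, and the TMM factors were 0.834 to 0.873 for control and 1.16 to 1.18 for g*Spns1*-cKO libraries. *Spns1* gave 1008, 1562 and 875 counts in the controls, against 642, 1175 and 698 counts for g*Spns1*-cKO, so the log2 fold change was -0.87 (adjusted p = 0.0300, quasi-likelihood test of edgeR, adjusted by Benjamini-Hochberg). This call was lost under library size only scaling (-0.43, edgeR adjusted p = 0.213), under upper-quartile scaling (-0.74, edgeR adjusted p = 0.0635) and without control replicate 2 (-0.68, edgeR adjusted p = 0.0785), g*Spns1*-cKO replicate 1 (-0.74, 0.0910) or g*Spns1*-cKO replicate 3 (-0.74, 0.0830). Counts per gene cannot show the loss of exon 3 itself.

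Of the 9 genes, 4 were higher in g*Spns1*-cKO livers, namely *Igfbp1*, *Igfbp3*, *Igfbp7* and *Igf1r*, and 1, *Igfbp4*, was lower, with the adjusted p set at 0.05 and taken over every gene tested (quasi-likelihood test of edgeR). *Igfbp2*, *Igfbp5*, *Igfbp6* and *Igf2r* did not pass. Among all 15449 genes tested, 21.3% were higher and 20.5% lower by the same test, so changes were common in these livers. The 3 g*Spns1*-cKO livers did not overlap with the 3 control livers for 5 of the 9 genes, against 54.1% of all genes tested. The median log2 fold change of the 9 genes was 0.74, beside 0.01 over all genes tested. With scaling by library size only, 7 of the 9 genes were higher and 0 lower, while the median over all genes tested moved to 0.46 and the calls over all genes to 7289 higher and 970 lower, so directions below are relative to TMM scaling. The genes were chosen with results of these data known, and their counts are a description of the set. The RNA came from whole liver, in which fewer cells of a type and less RNA per cell cannot be told apart.

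**Figure D1:**
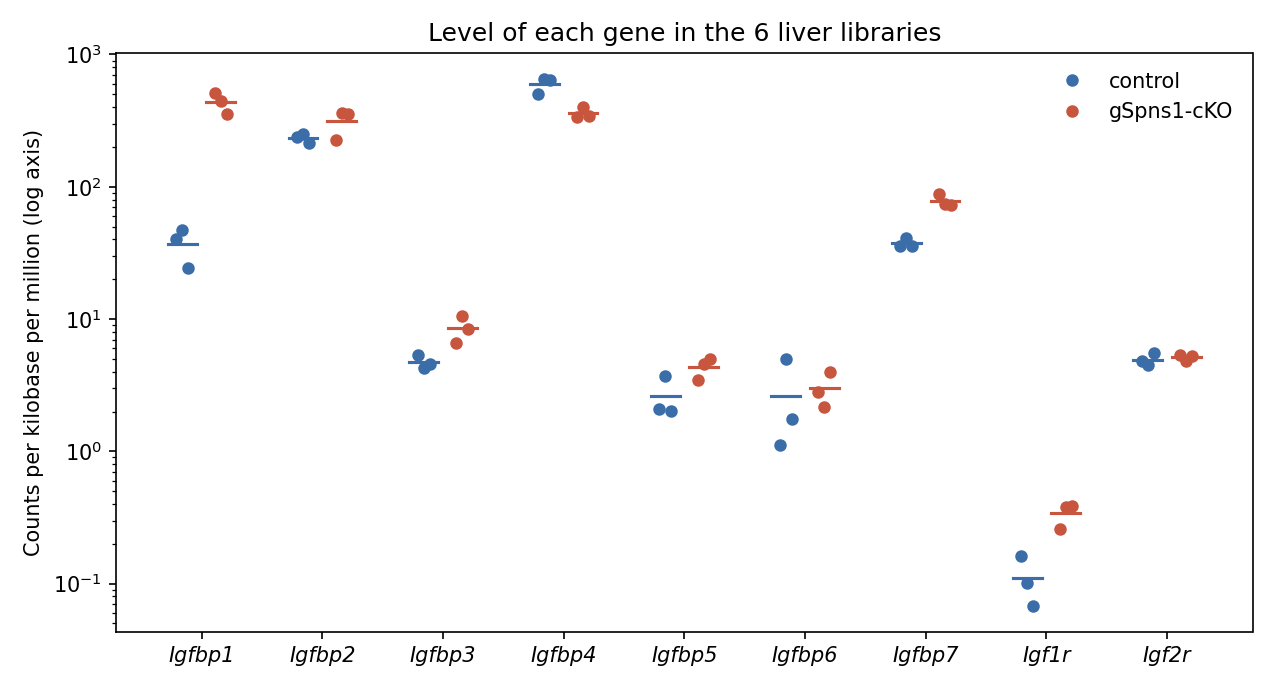
Level of each gene in CPM per kilobase of gene length (log axis), in 3 control (blue) and 3 g*Spns1*-cKO (red) livers; each point is 1 mouse and each line the mean of 3. *Igfbp1* moved from 37.2 to 439 and *Igfbp4* from 596 to 362, so that the ranges of both genes, apart in control livers, overlapped in g*Spns1*-cKO livers.

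*Igfbp1* (ENSMUSG00000020429, plus strand, chr11:7197782-7202546, GRCm38) encodes a small binding protein that hepatocytes secrete, and it is known to rise in fasting and to be held down by insulin through the transcription factor FoxO1. It gave 1735, 2200 and 938 counts in the controls, against 28272, 25980 and 21449 counts for g*Spns1*-cKO. The groups were far apart, and the lowest g*Spns1*-cKO liver stood at 546 CPM against 71.4 CPM in the highest control liver. *Igfbp1* rose 11.8-fold, from 56.7 ± 17.7 to 669.6 ± 120 CPM (SD, n = 3), which is 3.56 ± 0.26 on the log2 scale (estimate and standard error, adjusted p = 2.71e-05, edgeR). Among the 15449 genes tested, its log2 fold change ranked 112 from the top. By mean CPM, *Igfbp1* ranked 2664 in the controls and 135 with g*Spns1*-cKO. With each mouse left out in turn its log2 fold change stayed between 3.32 and 3.75.

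The promoter of *Igfbp1* is shown because it holds the insulin response element for which this gene is known. RefSeq promoters run from 250 bases before to 50 bases after the start site, and all 9 genes matched an entry (10 windows, with 2 for *Igfbp2*; GRCm38.p6). Each window was searched on both strands for 4 motifs, namely CAAAANA (the core bound by FoxO1, of which the insulin response element holds a facing pair), GTTAAT (part of the binding site of HNF1, a liver transcription factor), CACGTG (the E-box, which reads the same on both strands) and TATAAA (the TATA box). The capitals in the *Igfbp1* promoter (plus strand, chr11:7197537-7197836) mark CAAAANA at -108 on the plus strand and at -97 on the minus strand, and GTTAAT at -56 on the minus strand, none of them overlapping, with positions counted from the start site.

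Igfbp1: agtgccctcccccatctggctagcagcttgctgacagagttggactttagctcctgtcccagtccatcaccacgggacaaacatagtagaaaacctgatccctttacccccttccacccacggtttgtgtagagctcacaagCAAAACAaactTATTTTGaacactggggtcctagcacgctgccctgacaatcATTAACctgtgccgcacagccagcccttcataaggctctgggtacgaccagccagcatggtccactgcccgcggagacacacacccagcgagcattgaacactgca

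CAAAANA was found in 18.6% and GTTAAT in 7.10% of 32851 RefSeq promoters of the same length. None of the other 9 windows held either of them, which says only that these letters are not in those 300 bases. The matches describe the sequence, and binding was not measured.

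*Igfbp1* is 1 of several genes that FoxO1 is known to switch on in hepatocytes, and 10 further FoxO1 targets of the liver, *Igfbp1* not among them, were listed. Of these, 2 were higher, 6 were lower and 2 did not pass (edgeR adjusted p under 0.05), with a median log2 fold change of -0.43, beside 21.3% higher and 20.5% lower among all genes tested. *Pck1* and *G6pc*, which encode enzymes of glucose production, were lower by log2 fold changes of -1.63 (adjusted p = 0.00520, edgeR) and -0.77 (adjusted p = 0.0348, edgeR). *Mttp*, needed for lipoprotein assembly, and *Klf15*, a fasting-induced transcription factor, were also lower, at -0.67 and -0.73. The groups overlapped for *G6pc*. The 2 that rose, named after their values were seen, were *Ppargc1a*, a coactivator of fasting genes (1.30, edgeR adjusted p = 0.00822), and *Pdk4*, a kinase that limits glucose oxidation (1.11, edgeR adjusted p = 0.00411), and their groups did not overlap. The listed genes thus moved in both directions.

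*Igfbp2* (ENSMUSG00000039323, plus strand, chr1:72824503-72852474) encodes an abundant binding protein of blood that is also secreted by hepatocytes. It gave 12385, 14129 and 10071 counts in the controls, against 15113, 25789 and 25989 counts for g*Spns1*-cKO. In CPM the control livers held 440.5, 459 and 398, and the g*Spns1*-cKO livers held 420.1, 672 and 661. Replicate 1 of the g*Spns1*-cKO livers thus lay inside the control range, and the other two lay above it. The log2 fold change was 0.43 (standard error 0.19) and did not pass (adjusted p = 0.0833, edgeR). Without g*Spns1*-cKO replicate 1 it was 0.62 and passed (edgeR adjusted p = 0.00390). It also passed with DESeq2 (adjusted p = 0.0493), with upper-quartile scaling (edgeR adjusted p = 0.0372), with library size only (0.88, edgeR adjusted p = 0.00327) and with a filter of at least 1 count in any library (edgeR adjusted p = 0.0219).

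*Igfbp3* (ENSMUSG00000020427, minus strand, chr11:7206086-7213923) encodes the main carrier of IGF1 in blood, where it forms a complex of 3 proteins with IGF1 and the acid-labile subunit. In the liver it is known to be made mostly outside hepatocytes. It gave 468, 408 and 364 counts in the controls, against 745, 1270 and 1027 counts for g*Spns1*-cKO, with all 3 g*Spns1*-cKO livers above all 3 controls. It rose 1.81-fold, from 14.8 ± 1.73 to 26.6 ± 6.21 CPM (SD, n = 3), which is 0.85 ± 0.17 on the log2 scale (estimate and standard error, adjusted p = 0.00323, edgeR). With each mouse left out it stayed between 0.67 and 1.00.

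*Igfbp1* and *Igfbp3* are neighbours on chromosome 11 and are read towards each other, with 3539 bases and 0 annotated genes between their ends. Per kilobase, *Igfbp1* stood at 7.99 ± 2.91 times the level of *Igfbp3* in the controls and at 54.2 ± 20.5 times with g*Spns1*-cKO (SD, n = 3). *Igfbp2* and *Igfbp5* form a like pair on chromosome 1, with 5457 bases and 0 genes between them. The ratio of *Igfbp2* to *Igfbp5* was 96.1 ± 25.3 in the controls and 71.9 ± 6.66 with g*Spns1*-cKO, and its values overlapped between the groups. The neighbours *Igfbp1* and *Igfbp3* both rose, but by 11.8-fold and 1.81-fold.

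*Igfbp4* (ENSMUSG00000017493, plus strand, chr11:99041244-99054392) encodes a binding protein that withholds IGF from its receptor until the protease PAPP-A cuts it. It had the most counts of the 9 genes in every liver, with 61956, 88256 and 71642 in controls and 53436, 68481 and 59781 in g*Spns1*-cKO livers. In CPM the control livers held 2204, 2866 and 2831, and the g*Spns1*-cKO livers held 1485, 1785 and 1521, so the groups did not overlap. *Igfbp4* fell 1.65-fold, from 2634 ± 373 to 1597 ± 164 CPM (SD, n = 3), which is -0.72 ± 0.17 on the log2 scale (estimate and standard error, adjusted p = 0.00666, edgeR). With each mouse left out it lay from -0.85 to -0.66. Library size only left -0.28 and ended the call (edgeR adjusted p = 0.183), with the median gene at 0.46 on that scale. By mean CPM *Igfbp4* ranked 57 in both groups.

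The promoter of *Igfbp4* (plus strand, chr11:99040994-99041293) is shown beside that of *Igfbp1* because these are the hepatic binding protein genes that moved in opposite directions. The capitals mark TATAAA at -28, a motif found in 13.6% of RefSeq promoters of this length and, of the other 8 genes, in *Igfbp6* (at -148, on the minus strand). Its GC content was 71.3%, against 54.3% for the *Igfbp1* promoter, and it held none of the other 3 motifs. The promoters of *Igfbp3*, *Igfbp7* and *Igf1r*, which rose as *Igfbp1* did, had a GC content of 71.7%, 73.3% and 76%. A link between promoter sequence and direction was not tested.

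Igfbp4: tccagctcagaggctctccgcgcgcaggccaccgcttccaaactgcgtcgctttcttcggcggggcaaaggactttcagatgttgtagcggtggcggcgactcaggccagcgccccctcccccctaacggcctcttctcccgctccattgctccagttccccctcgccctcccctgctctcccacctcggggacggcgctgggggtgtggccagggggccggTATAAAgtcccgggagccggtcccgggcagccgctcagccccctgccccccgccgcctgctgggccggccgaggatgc

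*Igfbp5* (ENSMUSG00000026185, minus strand, chr1:72857932-72874884) encodes a binding protein that attaches to extracellular matrix and is also cut by PAPP-A. It gave 354, 685 and 305 counts in the controls, against 749, 1063 and 1185 counts for g*Spns1*-cKO. Control replicate 2, at 22.2 CPM, lay inside the g*Spns1*-cKO range of 20.8 to 30.1 CPM, and the other controls, at 12.6 and 12.1 CPM, lay below it. The log2 fold change was 0.74 (standard error 0.26) and did not pass (adjusted p = 0.0506, edgeR). Without control replicate 2 it was 1.08 (edgeR adjusted p = 0.00245), and without g*Spns1*-cKO replicate 1 it was 0.88 (edgeR adjusted p = 0.0388). It also passed with DESeq2 (adjusted p = 0.00954), with limma-voom (adjusted p = 0.0358), with upper-quartile scaling (edgeR adjusted p = 0.0345), with library size only (edgeR adjusted p = 0.00852) and with both other filters on low counts (edgeR adjusted p = 2.60e-06 and 0.0422).

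*Igfbp6* (ENSMUSG00000023046, plus strand, chr15:102144362-102149511) encodes the binding protein that prefers IGF2 over IGF1. It had the widest spread, with 35, 172 and 49 counts in the controls and 112, 93 and 174 with g*Spns1*-cKO. Control replicate 2 held the highest level of all 6 livers, 5.59 CPM, while the other controls held 1.24 and 1.94 CPM, below the g*Spns1*-cKO range of 2.42 to 4.43. The log2 fold change was 0.17 (standard error 0.55, adjusted p = 0.823, edgeR). Without control replicate 2 it was 1.06 (edgeR adjusted p = 0.0455), and its sign turned without control replicate 1 (-0.20), control replicate 3 (-0.06) or g*Spns1*-cKO replicate 3 (-0.09). All 6 listed markers of mesothelium, the layer that covers the liver surface, were highest among the controls in the same replicate 2. Of these 6 markers 2 passed as higher with g*Spns1*-cKO, *Wt1* (log2 fold change 3.29, edgeR adjusted p = 0.00174) and *Gpm6a* (1.10, edgeR adjusted p = 0.0426), and 0 as lower. Control replicate 2 stayed below all g*Spns1*-cKO livers for both, with 0.974 CPM against 5.53 to 7.02 for *Wt1* and 3.77 CPM against 4.34 to 5.66 for *Gpm6a*. For *Msln*, *Upk3b*, *Upk1b* and *Krt18* it lay within the g*Spns1*-cKO range, and *Msln* and *Upk1b* are named here after their values were seen. The summed markers ranged from 192 to 279 CPM in the controls and from 194 to 382 CPM with g*Spns1*-cKO, most of it *Krt18*, a keratin that hepatocytes also make. Without *Krt18*, a sum taken after the data were seen, the other 5 held 7.82, 18.2 and 5.22 CPM in the controls and 19.5, 20.7 and 25.6 CPM with g*Spns1*-cKO, so these sums did not overlap. The part of these markers in the *Igfbp6* values was not tested.

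**Figure D2:**
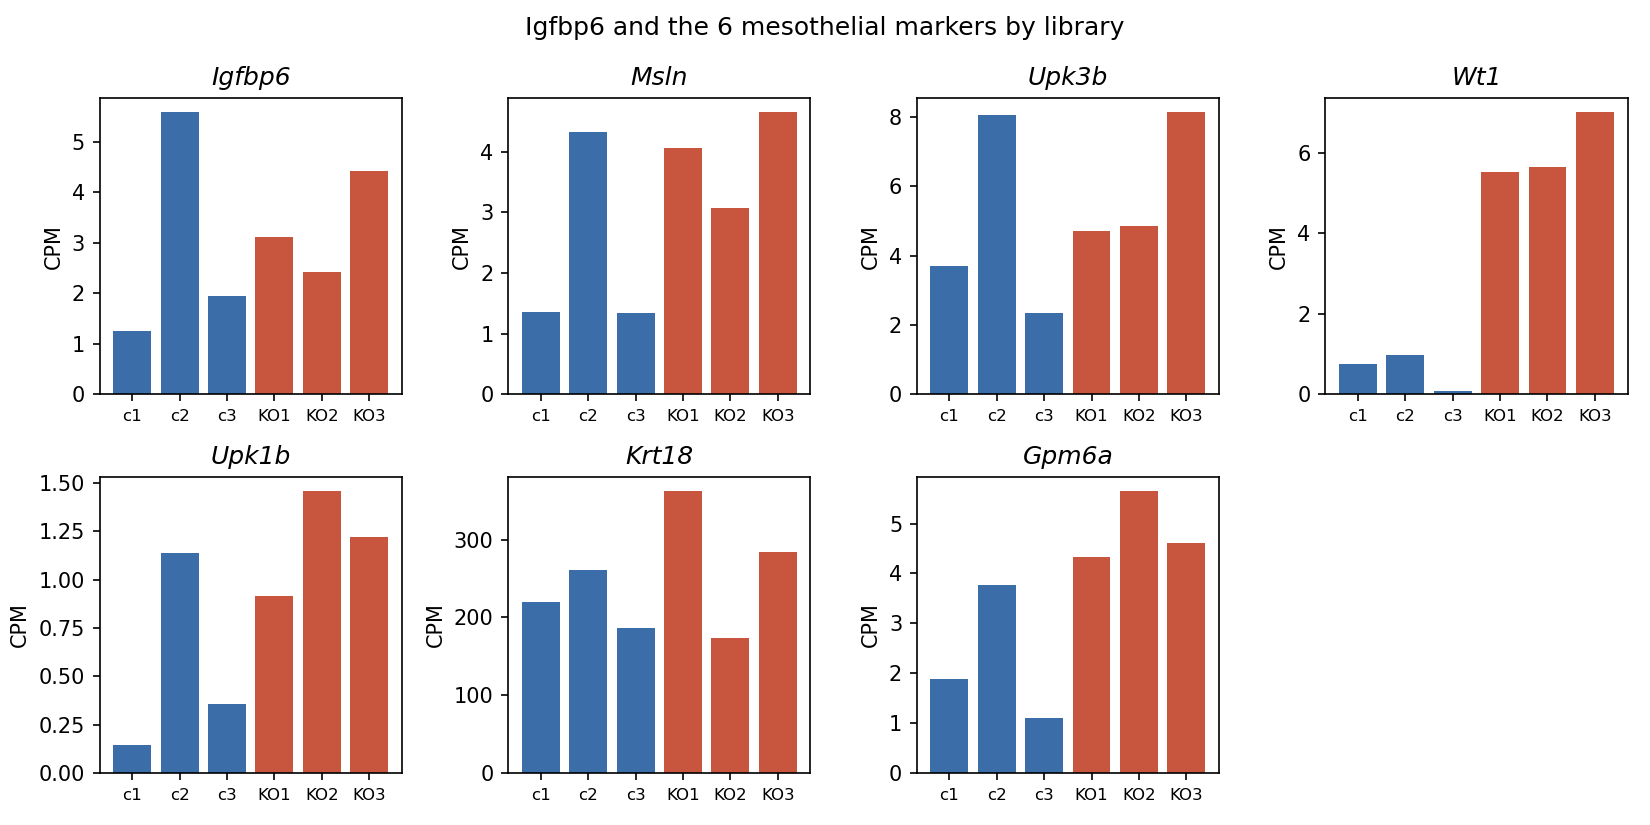
CPM of *Igfbp6* and of the 6 listed mesothelial markers in control (c1 to c3, blue) and g*Spns1*-cKO (KO1 to KO3, red) livers, 1 bar per mouse, each axis starting at 0. Control replicate 2 stands above the other controls in every panel, at 5.59 CPM for *Igfbp6*, and below all g*Spns1*-cKO bars for *Wt1* and *Gpm6a*.

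*Igfbp7* (ENSMUSG00000036256, minus strand, chr5:77349240-77408041) encodes a related protein of low affinity for IGF, which vessel and stellate cells are known to secrete. It gave 1219, 1531 and 1093 counts in the controls, against 3824, 3458 and 3473 counts for g*Spns1*-cKO. The g*Spns1*-cKO livers were close together and well above the controls. *Igfbp7* rose 2.09-fold, from 45.4 ± 3.72 to 94.9 ± 9.89 CPM (SD, n = 3), which is 1.06 ± 0.12 on the log2 scale (estimate and standard error, adjusted p = 9.36e-05, edgeR). With each mouse left out it stayed between 0.97 and 1.13. The gene shares 85 bases at its end with *Polr2b* on the other strand, which had a log2 fold change of -0.07 (edgeR adjusted p = 0.700). It also overlaps *Gm34648*, a gene of the other strand with 0 counts in the 6 libraries.

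*Igf1r* (ENSMUSG00000005533, plus strand, chr7:67952827-68233668) encodes the signalling receptor, which mature hepatocytes are known to express very weakly. It gave only 76, 52 and 29 counts in the controls, against 156, 246 and 256 counts for g*Spns1*-cKO. Even so, all 3 g*Spns1*-cKO livers were above the controls. *Igf1r* rose 3.10-fold, from 1.85 ± 0.790 to 5.75 ± 1.23 CPM (SD, n = 3), which is 1.63 ± 0.31 on the log2 scale (estimate and standard error, adjusted p = 0.00221, edgeR), and it stayed between 1.38 and 2.00 with each mouse left out. Per kilobase it was the lowest of the 9 genes in both groups.

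*Igf2r* (ENSMUSG00000023830, minus strand, chr17:12682406-12769664) encodes the mannose 6-phosphate and IGF2 receptor. It gave 1267, 1278 and 1296 counts in the controls, against 1806, 1708 and 1938 counts for g*Spns1*-cKO. After TMM scaling the levels were 45.9 ± 4.91 and 48.0 ± 3.06 CPM (SD, n = 3) and overlapped. The log2 fold change was 0.06 (standard error 0.11, adjusted p = 0.675, edgeR). With library size only it was 0.51 (edgeR adjusted p = 0.00245), about as far from zero as the median gene on that scale.

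*Igf2r* overlaps *Airn*, a long non-coding RNA of the other strand, over 28354 bases. In mice, *Airn* is read from the paternal chromosome and is known to silence the paternal copy of *Igf2r*. *Airn* gave 9, 9 and 7 counts in the controls, against 64, 119 and 108 counts for g*Spns1*-cKO, which is 3.08 ± 0.36 on the log2 scale (estimate and standard error, edgeR adjusted p = 0.000128). Whether counting used strand is not given in the sources used here, so the reads of both genes may not be separated in the overlap. *Airn* reached only 2.54 CPM in g*Spns1*-cKO livers, against 48.0 for *Igf2r*.

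The promoter of *Igf2r* (minus strand, chr17:12769657-12769956) is shown because the product serves the lysosome and the E-box is the core of the motif that TFEB, a regulator of lysosomal genes, binds. The capitals mark CACGTG at -48 and at -7. The E-box was found in 7.15% of RefSeq promoters of this length, and of the other 8 genes *Igfbp2* held it too, at -142.

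Igf2r: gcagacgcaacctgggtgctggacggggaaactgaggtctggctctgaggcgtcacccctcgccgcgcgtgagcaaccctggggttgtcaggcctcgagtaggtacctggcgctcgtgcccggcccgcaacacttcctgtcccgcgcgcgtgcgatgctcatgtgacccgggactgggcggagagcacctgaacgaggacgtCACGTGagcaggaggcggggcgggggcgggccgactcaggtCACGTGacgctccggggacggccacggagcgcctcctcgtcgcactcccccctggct

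For each of the 5 genes whose groups did not overlap, a two-sided exact permutation test was run on the difference of mean log2(CPM + 0.5). It gave 0.1 as its p, the lowest value possible for 3 mice per group. Groups of 3 that do not overlap must give this value, so for these 5 genes the test only repeats the absence of overlap. The same test gave 0.3 for *Igfbp2*, 0.2 for *Igfbp5* and 0.7 for *Igfbp6* and for *Igf2r*. The adjusted p-values above therefore rest on the model of edgeR and on the spread it shares between genes.

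**Figure D3:**
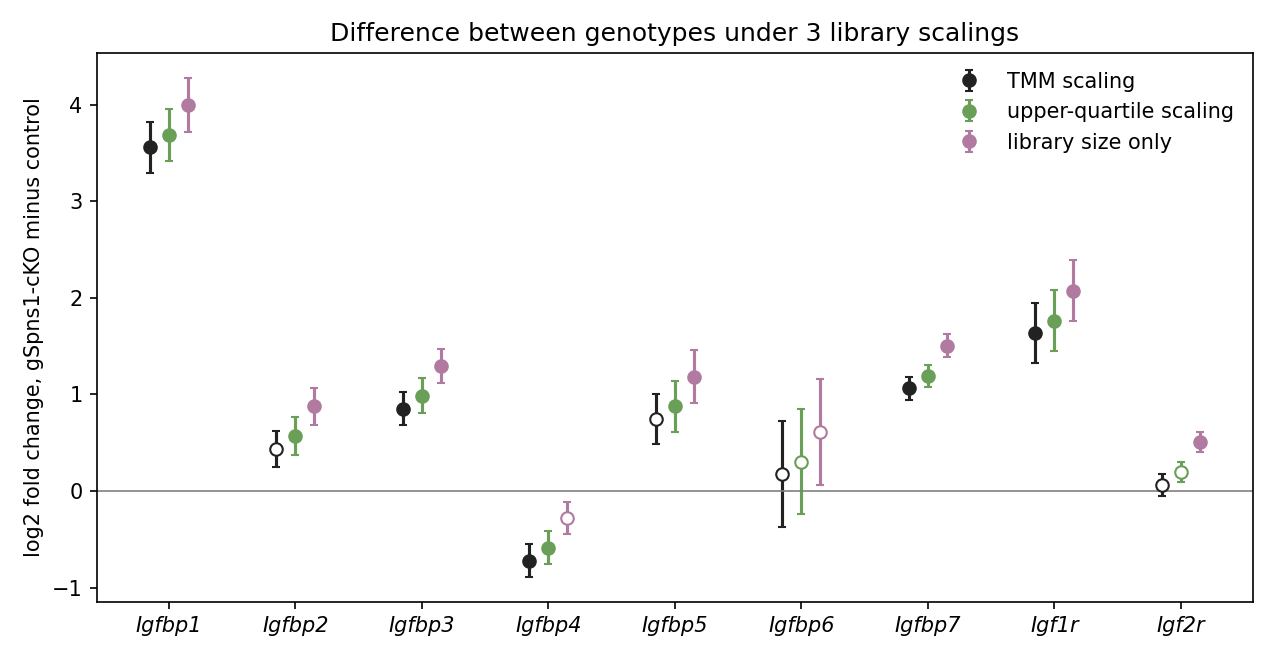
Log2 fold change of each gene (g*Spns1*-cKO minus control, 3 mice each) with TMM, upper-quartile and library size only scaling; bars are standard errors, filled points passed an adjusted p of 0.05 in edgeR and open points did not. *Igfbp1*, *Igfbp3*, *Igfbp7* and *Igf1r* passed under all 3 scalings, and *Igfbp4* passed under TMM and upper-quartile scaling only.

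To compare levels between genes, CPM were divided by gene length in kilobases. The deposited lengths were used, such as 1525 bases for *Igfbp1* and 4416 for *Igfbp4*. The order and the shares below depend on these lengths, and no other lengths were tried. In control livers *Igfbp4* led at 596 ± 84.4, followed by *Igfbp2* at 234 ± 16.9, and the ranges of both were apart from their neighbours. *Igfbp7* at 37.6 ± 3.08 and *Igfbp1* at 37.2 ± 11.6 came next and overlapped. *Igf2r* (4.93 ± 0.528), *Igfbp3* (4.72 ± 0.552), *Igfbp6* (2.63 ± 2.10) and *Igfbp5* (2.60 ± 0.955) formed a run in which each range overlapped with the next. *Igf1r* was last and apart, at 0.110 ± 0.0471 (all SD, n = 3).

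In g*Spns1*-cKO livers *Igfbp1* came first by its mean, at 439 ± 78.9, but its range overlapped with that of *Igfbp4* at 362 ± 37.1, which in turn overlapped with *Igfbp2* at 316 ± 77.1. *Igfbp7* followed at 78.5 ± 8.18 and *Igfbp3* at 8.51 ± 1.98, each apart from its neighbours. *Igf2r* (5.16 ± 0.328), *Igfbp5* (4.37 ± 0.805) and *Igfbp6* (2.99 ± 0.915) overlapped one with the next, and *Igf1r* was again last at 0.343 ± 0.0732. In CPM, without division by length, *Igfbp4* stayed ahead of *Igfbp1* in these livers, at 1597 ± 164 against 669.6 ± 120 (SD, n = 3).

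The share of each gene in the summed per-length level of the 7 binding proteins does not depend on how libraries are scaled. It does depend on the gene lengths used. *Igfbp4* held 60.7%, 65.0% and 69.3% of the sum in the controls and 28.5%, 31.0% and 29.9% with g*Spns1*-cKO. *Igfbp1* held 4.92%, 4.69% and 2.63% in the controls and 43.7%, 34.1% and 31.1% with g*Spns1*-cKO. By this per-length measure, the transcripts of the binding proteins went from a pool led by *Igfbp4* to one shared among *Igfbp1*, *Igfbp4* and *Igfbp2*. The share of *Igfbp2* was 25.7% ± 2.94 and 26.1% ± 6.12 (SD, n = 3) and overlapped. *Igfbp7* went from 4.11% ± 0.249 to 6.51% ± 0.878, and *Igfbp3*, *Igfbp5* and *Igfbp6* held under 1% each in every liver.

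**Figure D4:**
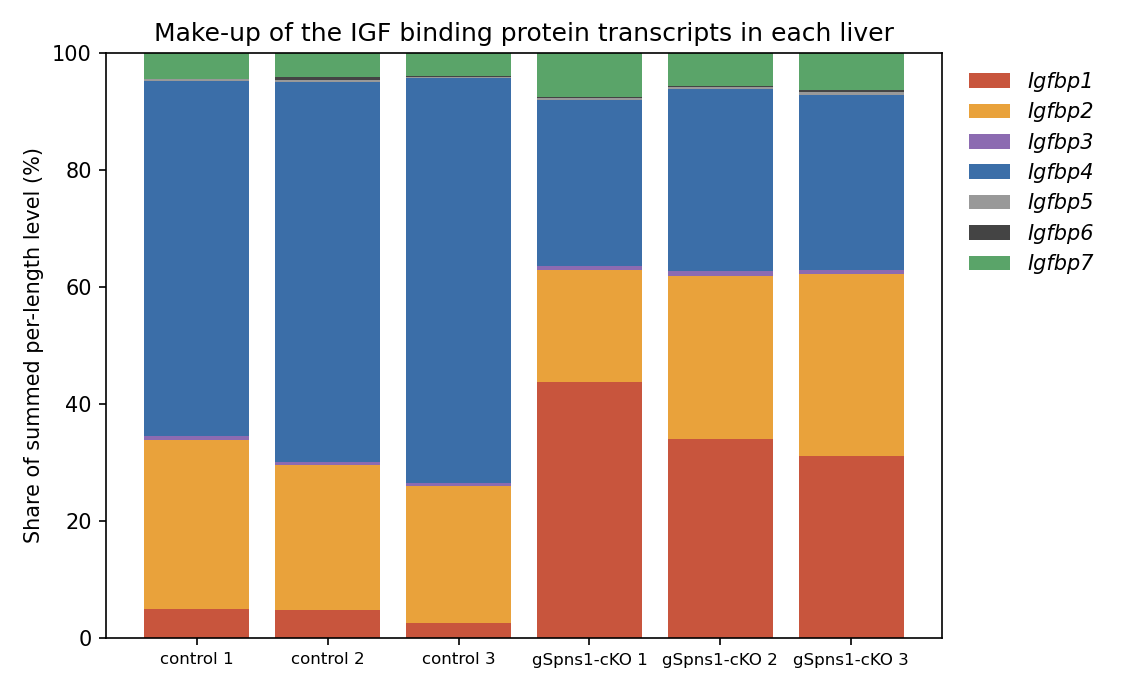
Share (%) of each *Igfbp* gene in the summed counts per kilobase of the 7 binding protein genes, 1 bar per liver, for 3 control and 3 g*Spns1*-cKO mice. *Igfbp1* made up 2.63% to 4.92% of control bars and 31.1% to 43.7% of g*Spns1*-cKO bars, and *Igfbp4* made up 60.7% to 69.3% and 28.5% to 31.0%.

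The summed level itself was 822, 998 and 925 CPM per kilobase in the controls and 1180, 1304 and 1151 with g*Spns1*-cKO, so the groups did not overlap. The ratio of the group means was 1.32. Without *Igfbp1* the sum was 878 ± 87.0 in the controls and 772 ± 99.3 with g*Spns1*-cKO (SD, n = 3), with overlapping ranges. Under TMM scaling the sum was thus higher with *Igfbp1* and not without it. The sum without *Igfbp1* was not taken under another scaling.

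*Igf1*, which encodes the ligand, and *Igfals*, which encodes the acid-labile subunit of its blood complex, were both lower. *Igf1* gave 17242, 18371 and 14613 counts in the controls, against 13784, 12718 and 12622 counts for g*Spns1*-cKO, which is -0.79 ± 0.13 on the log2 scale (estimate and standard error, adjusted p = 0.00116, edgeR). *Igfals* gave 2596, 3811 and 2883 counts in the controls, against 1988, 2017 and 2060 counts for g*Spns1*-cKO, which is -1.04 ± 0.12 on the log2 scale (estimate and standard error, edgeR adjusted p = 0.000154). For both genes the groups did not overlap, and both calls held in all 15 alternative settings. *Igf2*, which mouse liver is known to switch off after birth, had 0 counts in each control library and 2, 1 and 0 in the g*Spns1*-cKO libraries and was not tested.

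Set against *Igf1*, the summed binding protein level per kilobase was 15.2 ± 1.73 times that of *Igf1* in the controls and 34.98 ± 4.25 times with g*Spns1*-cKO (SD, n = 3). These ratios are of transcripts within a liver and do not depend on library scaling, but their size depends on the gene lengths used. The ratio of *Igf2r* to *Igf1r* was 30.1, 44.3 and 80.6 in the controls and 20.9, 12.5 and 13.7 with g*Spns1*-cKO. That ratio was lower in each g*Spns1*-cKO liver than in each control liver.

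Beyond the 9 genes, 53 genes of the IGF system were listed by role, of which 40 were tested, with 14 higher, 6 lower and 20 not passing (edgeR adjusted p under 0.05). Their median log2 fold change was 0.20, and the groups did not overlap for 26 of them. Among all genes tested 21.3% were higher, 20.5% were lower and 54.1% did not overlap. With library size only, 27 of the 40 were higher and 2 lower, beside 7289 higher and 970 lower of all 15449 genes.

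Of 9 proteases of binding proteins and their inhibitors, 5 were tested and 3 were higher, beside 21.3% higher among all genes tested. *Mmp2*, a matrix protease that can cut binding proteins, gave 63, 112 and 60 counts in the controls, against 626, 679 and 696 counts for g*Spns1*-cKO, a log2 fold change of 2.67 (edgeR adjusted p = 8.75e-06). *Stc2*, whose product blocks PAPP-A, gave 1, 6 and 0 counts in the controls, against 40, 24 and 38 counts for g*Spns1*-cKO (log2 fold change 3.40, standard error 0.72, edgeR adjusted p = 0.00384). *Htra1*, a secreted serine protease, was higher by 1.10 on the log2 scale (edgeR adjusted p = 0.0115). *Pappa* and *Pappa2*, the proteases that cut IGFBP4 and IGFBP5, had too few counts to be tested.

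Of 9 genes of the insulin receptor family and its adaptors, 7 were tested. *Insr*, the insulin receptor, was lower by a log2 fold change of -0.40 (edgeR adjusted p = 0.0158), but stood at 0.04 with library size only and lost the call with upper-quartile scaling (-0.27, edgeR adjusted p = 0.0788) and without control replicate 3 (-0.37, 0.0606) or g*Spns1*-cKO replicate 3 (-0.40, 0.0621). The adaptors *Grb14* and *Gab1* were lower, at -0.67 and -0.66 (edgeR adjusted p = 0.0120 and 0.00582), and *Grb10*, an inhibitor of both receptors, was higher at 0.99 (edgeR adjusted p = 0.00743). The calls of *Grb14* and *Gab1* were lost with library size only (-0.22 and -0.21), and that of *Grb14* also without g*Spns1*-cKO replicate 3 (-0.60, edgeR adjusted p = 0.0504). The docking proteins *Irs1* and *Irs2* did not pass, at 0.15 and 0.35. *Igf1r*, which rose, and *Insr* thus stood on different sides of zero under TMM scaling.

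Of 7 genes of growth hormone reception and STAT5, *Ghr*, the growth hormone receptor, was lower, at -0.88 on the log2 scale (standard error 0.18, edgeR adjusted p = 0.00309) and *Prlr*, the prolactin receptor, was higher by 0.61 (edgeR adjusted p = 0.00157). *Ghr* gave 18043, 14861 and 16304 counts in the controls, against 13779, 10162 and 12429 counts for g*Spns1*-cKO, and its call was lost with library size only (-0.43, edgeR adjusted p = 0.0511). The other 5 genes, with *Stat5b* at 0.15 and *Socs2*, a target of STAT5, at 0.20, did not pass. The range of the summed CPM of these 7 genes was 645 to 810 in the controls and 479 to 568 with g*Spns1*-cKO.

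Of 13 genes listed for mannose 6-phosphate tagging and sorting, the route that IGF2R serves, 6 were higher and 0 lower. Among all genes tested 21.3% were higher and 20.5% lower. The list also held *Plaur* and *Plau* of the urokinase system, which are not part of that route and were both among the higher genes. *Gnptab*, part of the enzyme that adds the tag, was higher by 0.64 on the log2 scale (edgeR adjusted p = 0.00654). *Vps29* and *Vps35*, parts of the retromer that returns the receptor to the Golgi, were higher by 0.53 and 0.55, and the adaptor *Gga3* by 0.60 (edgeR adjusted p = 0.00429, 0.00351 and 0.00759). *Plaur* and *Plau*, which encode the urokinase receptor that binds IGF2R and its protease, were higher by 2.23 and 1.65 (edgeR adjusted p = 0.000547 and 0.000741) from a mean of at most 1.16 CPM in control livers. *M6pr*, the other mannose 6-phosphate receptor, stood at -0.03 (edgeR adjusted p = 0.882), so that neither it nor *Igf2r* passed.

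Of 9 other genes with an IGFBP-type domain, 5 were tested and 2 were higher, beside 21.3% higher among all genes tested. *Esm1*, an endothelial proteoglycan, was higher by 2.05 on the log2 scale (edgeR adjusted p = 0.00126). *Ctgf*, a matrix-associated growth regulator, was higher by 1.25 (edgeR adjusted p = 0.0492) and lost its call in 8 of 15 alternative settings, among them those without control replicate 1, 2 or 3 (1.23, 1.44 and 1.08) and without g*Spns1*-cKO replicate 3 (1.44). Of the 3 RNA-binding proteins named for *Igf2* mRNA only *Igf2bp2* was tested, and it was higher by 1.17 (edgeR adjusted p = 0.0354), a call lost with limma-voom (adjusted p = 0.121) and without control replicate 1, 2 or 3 (1.09, 1.13 and 1.25) or g*Spns1*-cKO replicate 1 or 3 (0.92 and 0.99).

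**Figure D5:**
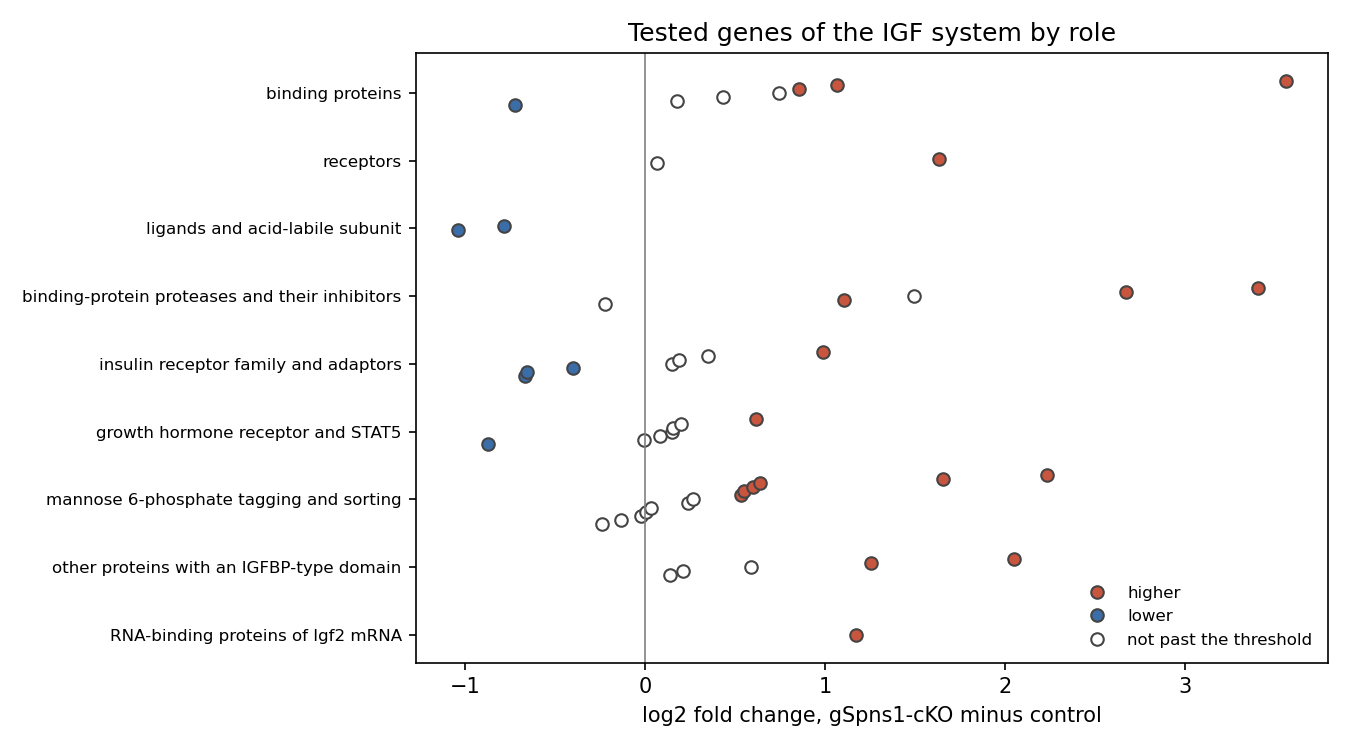
Log2 fold change (g*Spns1*-cKO minus control, 3 mice each, TMM scaling) of the tested genes of the IGF system, 1 point per gene in rows by role; red points were higher, blue points lower and open points did not pass an adjusted p of 0.05 in edgeR. Both tested genes of the ligand row lie below 0, and 4 of the 9 points in the upper 2 rows are red.

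Markers of cell types were compared as well, beside 21.3% higher and 20.5% lower among all genes tested (edgeR adjusted p under 0.05). Of 10 hepatocyte markers 7 were lower and 0 higher. Under TMM scaling their summed level was 112030 to 126030 CPM in the controls and 66140 to 74874 CPM with g*Spns1*-cKO. The tissue thus carried its defining markers in both groups. Most of the sum was *Alb*, at a mean of 69348 CPM in control and 41886 CPM in g*Spns1*-cKO livers. *Cps1* stood above all controls in all 3 g*Spns1*-cKO livers but did not pass (log2 fold change 0.36). The hepatocyte sum was not taken under another scaling. Of 12 stellate cell and fibroblast markers 10 were higher and 0 lower, and their summed level went from between 213 and 249 CPM to between 595 and 628 CPM. Macrophage markers were higher in 12 of 12, with summed levels of 158 to 261 CPM and 658 to 941 CPM. *Igfbp3* and *Igfbp7*, which cells other than hepatocytes are known to make, were higher in the same livers as the stellate and macrophage sums. Any genes that differ by genotype line up in this way, and a link was not tested.

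Endothelial markers were higher in 6 of 12, with summed levels of 287 to 317 CPM and 378 to 444 CPM, and cholangiocyte markers in 9 of 10, with 60.6 to 79.2 CPM and 199 to 316 CPM. Most of the cholangiocyte sum was *Spp1*, at a mean of 44.6 CPM in control and 195 CPM in g*Spns1*-cKO livers. Lymphocyte markers were higher in 2 and lower in 1 of 10, neutrophil markers higher in 4 of 5 tested, and markers of dividing cells higher in 1 of 6 tested. Of the 8 neutrophil markers listed, 3 had too few counts to be tested. *Ly6g* gave 0, 2 and 0 counts in the controls and 0, 0 and 0 with g*Spns1*-cKO, *Camp* 5, 2 and 0 against 2, 2 and 2, and *Mmp8* 1, 0 and 0 against 7, 12 and 11. Markers with few control counts could enter the test through the g*Spns1*-cKO livers alone. The counts for lymphocytes and dividing cells were not above the shares over all genes tested. None of the listed markers was at 0 in all 6 libraries. The part of these cell types in the values of *Igfbp3*, *Igfbp5*, *Igfbp7* and *Igf1r*, and of the hepatocyte markers in those of *Igfbp4*, was not tested. *Igfbp1*, a hepatocyte product, was higher in the livers where the summed hepatocyte markers were below the control range under TMM scaling. A link between them was not tested either.

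The genes whose log2(CPM + 0.5) followed each of the 9 most closely over the 6 livers were taken from protein-coding genes whose mean was 10 CPM or more. As the 6 points share the difference between genotypes, the Pearson correlations are a description. *Igfbp1* was followed by *Sgk3* (r = 0.999) and *Oit3* (r = 0.998), *Igfbp3* by *Tmem87b* (r = 0.996) and *Abcd2* (r = 0.995), *Igfbp4* by *Ubl4a* (r = 0.998) and *Tfr2* (r = 0.997), and *Igfbp7* by *Zfp280b* (r = 0.999) and *Tgfb1* (r = 0.998). *Igf1r* was followed by *Slc43a3* (r = 0.996) and *Kdr* (r = 0.994). Both *Kdr* and *Oit3*, which followed the hepatocyte gene *Igfbp1*, were among the listed endothelial markers. What such a match says of cell type was not tested. For genes without a call the closest were *Ppp1r1b* and *Rexo1* for *Igfbp2* (r = 0.993 and 0.972), *Llgl1* and *Dhx38* for *Igfbp5* (r = 0.990 and 0.983), *Eif6* and *Gm7694* for *Igfbp6* (r = 0.980 and 0.966), and *Tmed7* and *Eif4e* for *Igf2r* (r = 0.982 and 0.979).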

How the data were processed

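RNA of 6 mouse livers was sequenced by a commercial service. The authors deposited whole-number counts per gene, not normalized, which were made per the submitters' processing notes with fastp, HISAT2 2.0.5 and featureCounts 1.5.0-p3 on mm10. The authors' own FPKM columns (6) and their fold changes and p-values were not used. All 9 genes had the same position in GENCODE M21 (GRCm38). The analysis used edgeR 4.0.16 (R 4.3.3) with filterByExpr by genotype, TMM, robust glmQLFit, glmQLFTest and Benjamini-Hochberg adjustment over 15449 genes. Standard errors given for edgeR were derived from its quasi-likelihood F statistic, as the absolute log2 fold change over the square root of F. CPM use TMM-scaled library sizes, and levels per kilobase use the deposited gene lengths. Samples were grouped by their labels. The genes and all lists were chosen with earlier results of these data known. Named genes are the 9, every listed gene of the IGF system that passed, *Igf1*, *Igf2*, *Igfals*, *Insr*, *Ghr*, *Spns1*, the 2 most alike genes of each of the 9, and at most 4 genes of other lists, those with the highest mean CPM. Genes named for comparison that did not pass, and genes that overlap one of the 9, were added after their values were seen. The scripts were tested on simulated data. Alternatives were DESeq2 1.42.0, limma-voom (limma 3.58.1), RLE, upper-quartile and library size only scaling, looser and stricter filters (1 or more counts in any library, or 10 or more in all), a threshold of 0.01, a replicate block, and leaving out each mouse. No 2 libraries of a group agreed within sampling noise (chi-square per gene between 42.5 and 126).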

Additional observations from a re-analysis of the deposited data

How the results depend on the processing

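*Igfbp1*, *Igfbp3*, *Igfbp7* and *Igf1r* kept their direction and their call in all 15 alternative settings, and over the 9 genes 114 of their log2 fold changes kept direction and side of the threshold while 16 gained a call, 1 lost it and 4 turned sign. Among the other named genes of the IGF system and *Spns1*, 282 kept both, 31 lost the call and 1 turned sign. Scaling by library size only moved the number of the 9 genes from 4 to 7 higher and from 1 to 0 lower, that of the other genes of the IGF system from 14 to 27 higher and from 6 to 2 lower, the ratio of the summed binding protein levels from 1.32 to 1.80, and the log2 fold change of *Insr* to 0.044. With upper-quartile scaling the median over all genes was 0.14. With each mouse left out, that ratio lay between 1.26 and 1.39, between 4 and 6 of the 9 genes were higher and 1 lower, and of the other genes of the system between 12 and 14 were higher and between 5 and 7 lower. In the same fits the log2 fold change of *Igfbp6*, the least precise of the 9, lay between -0.20 and 1.06 and was -0.20 without control replicate 1, -0.06 without control replicate 3 and -0.09 without g*Spns1*-cKO replicate 3. With each mouse left out, that of *Igf2r* lay between -0.01 and 0.14, with -0.011 without control replicate 2, and it was 0.19 with upper-quartile scaling and 0.51 with library size only. The cause of these shifts was not tested. Replicate numbers are shared in the labels of the groups. Over the genes tested, the deviations of livers with the same number from their group means had correlations of 0.04, 0.03 and -0.03. These values cannot show whether such livers share a litter or a batch, which the labels do not give. A fit with the replicate number as a block called 3084 genes higher and 3016 lower and added *Igfbp5* (0.78, edgeR adjusted p = 0.0142), giving 5 of the 9 genes higher and 1 lower. At 29 to 76 counts in control livers, *Igf1r* rests on few reads.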
